A study of Macaca mulatta with 10 samples.

Results

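The genes described here are 3 regulators of the basal layer of stratified epithelia (TP63, GRHL3 and BNC1), 4 genes of desmosomes and cell contacts (DSG3, DSC3, DSP and PERP) and SFN, which encodes the epithelial 14-3-3 protein sigma. They were chosen by name, and every probe set (a group of short probes that reads 1 transcript) annotated to one of them was taken, which gave 15 of 44210 probe sets and 8 of 13191 genes. TP63 had 6 probe sets, DSC3 and PERP had 2 each, and the other genes had 1 each. None of the 15 was annotated to a second gene.

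The RNA was that of ORMES6, a line of rhesus macaque embryonic stem (ES) cells, read on Affymetrix rhesus macaque arrays, with 10 arrays in 5 groups of 2. The groups were differentiated cells at the third in vitro differentiation stage (IVDS3), at the second stage (IVDS2), from the central foci of colonies at that second stage (IVDS2-C) and from the peripheral area of those colonies (IVDS2-P), and undifferentiated ES cells (ES) as the control. ES cells grew on mouse embryonic fibroblast feeders in medium with serum replacement and bFGF, and the differentiation, which was meant to form hepatic foci, used a co-culture in which hESdF, a fibroblast-like derivative of human ES cells, were the partner. All groups are of this 1 line, the labels state no time in days, and they state neither how much of a colony the IVDS2 sample holds nor whether the 2 repeats of a group were separate cultures, so the p-values measure the spread between arrays, which may be technical.

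TP63 encodes p63, a transcription factor of the p53 family that is required for stratified epithelia and that marks their basal cells. GRHL3 is a grainyhead-like factor of surface epithelium and skin barrier formation, and BNC1 (basonuclin 1) is a zinc finger protein of basal keratinocytes. Desmosomes join neighbouring epithelial cells: the desmosomal cadherins DSG3 and DSC3 span the membrane, desmoplakin (DSP) ties them to keratin filaments, and PERP is a membrane protein of desmosomes and a known target of p63. SFN is abundant in stratified epithelia and is known as a p53-induced cell cycle inhibitor. The question put to the arrays was whether the regulators rose at an earlier stage than the structural genes.

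Values are log2 units that had been centred on each probe set's median over the 10 arrays before deposit, so 0 is a gene's own middle array, only differences carry meaning, and levels of different genes cannot be ranked. No detection call came with them, so whether a gene at its low values was above background cannot be told. A gene's value is the mean of its probe sets. A difference was called when the adjusted p of limma (Benjamini-Hochberg over all genes or all probe sets) was under 0.05, and "rose" and "fell" are used for called differences. The SD of the difference between the 2 arrays of a group, over all probe sets, lay between 0.245 in IVDS3 and 0.403 in ES.

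The 3 regulators rose in IVDS2 against ES by between 2.38 and 3.21 log2 units, while DSG3, DSC3 and DSP differed by 0.42 or less and were not called. In the central foci of the same stage DSG3 (2.39, limma adjusted p = 0.00245) and DSP (0.72, limma adjusted p = 0.00498) were already above ES, and DSC3 was not called before IVDS3. By IVDS3 all 8 genes were above ES, with DSG3 65.9-fold higher. In IVDS2, 4 of the 8 genes had risen and 0 had fallen, where 6.5% of all genes rose. In IVDS3, 8 of 8 were higher than ES, where 21.1% of all genes rose. The median log2 difference of the 8 was 1.21 in IVDS2 and 3.4 in IVDS3, beside medians over all genes of -0.0418 and -0.135. Bulk RNA cannot tell more cells that express a gene apart from more RNA of that gene per cell.

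TP63 stood at -2.40 and -2.32 in ES, at 0.14 and -0.10 in IVDS2, and at 0.52 and 0.79 in IVDS3. The stages did not overlap, and each was above the one before it. TP63 rose by 2.38 ± 0.14 log2 units (SE, 5.2-fold) in IVDS2 against ES (limma adjusted p = 6.01e-05), and by a further 0.63 ± 0.14 in IVDS3 against IVDS2 (limma adjusted p = 0.0054). In the central foci it stood at 0.77 and 0.91 and in the peripheral area at -1.53 and -1.44. The difference between IVDS3 and the foci was not called (-0.19, limma adjusted p = 0.394), and the periphery was 0.87 above ES (limma adjusted p = 0.00514).

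GRHL3 was at -1.67 and -1.62 in ES, at 1.37 and 1.48 in IVDS2, and at 0.68 and 0.86 in IVDS3. Its highest arrays were the IVDS2 pair, so it took another course than TP63 and BNC1. It rose 8.4-fold in IVDS2 against ES (3.07 ± 0.17 log2 units, limma adjusted p = 6.01e-05) and then fell by 0.65 in IVDS3 against IVDS2 (limma adjusted p = 0.0139). That fall was no longer called without the second IVDS2 array (adjusted p = 0.0793) or without the first IVDS3 array (adjusted p = 0.095).

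In the central foci GRHL3 stood at -0.05 and 0.05 and in the peripheral area at -0.75 and -0.21. Both areas of the colony were thus below the IVDS2 arrays. The foci were lower than IVDS2 by 1.42 log2 units (limma adjusted p = 0.00548) and the periphery by 1.90 (limma adjusted p = 0.00997). Of all genes, 10 were called higher in IVDS2 than in both areas, which is 0.0758% of those tested. Among them were GRHL3 and, named here after their values were seen, COCH, PHACTR1, SGPP2 and TNNC1. Leaving out the second IVDS2 array or the first IVDS2-P array left 0 such genes (limma adjusted p of GRHL3 0.0586 and 0.0501), so this pattern rests on those arrays.

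BNC1 had values of -3.16 and -3.26 in ES, 0.56 and -0.56 in IVDS2, and 1.30 and 1.57 in IVDS3. The IVDS2 arrays differed from each other more than those of any other group (SD 0.789) but overlapped neither neighbour. BNC1 rose 9.24-fold in IVDS2 against ES (3.21 ± 0.30 log2 units, limma adjusted p = 0.000415) and 25-fold in IVDS3 against ES. It rose by 1.44 ± 0.30 in IVDS3 against IVDS2 (limma adjusted p = 0.0049). The central foci, at 1.97 and 2.16, held its highest arrays, and the peripheral area, at -2.77 and -2.47, did not pass the test against ES (0.59 ± 0.30, limma adjusted p = 0.231).

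**Figure D1:**
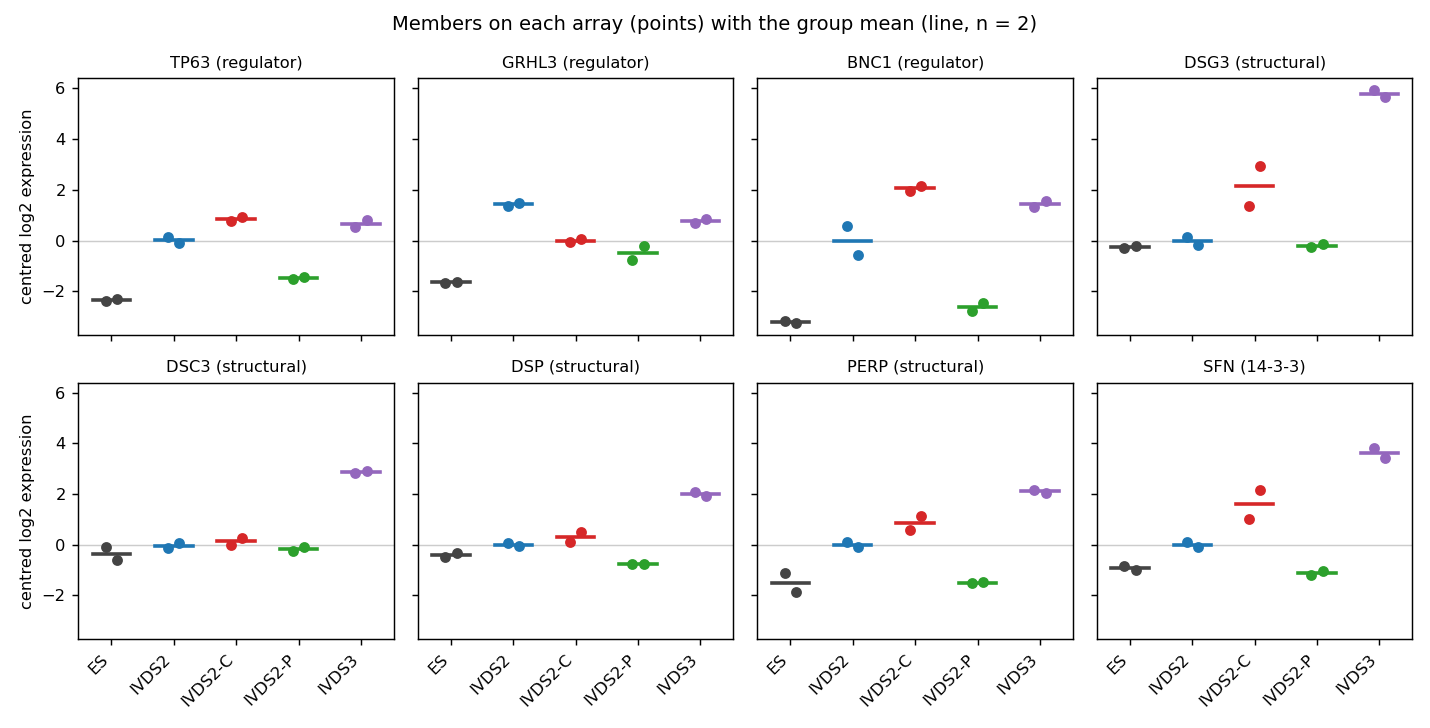
Centred log2 expression of each gene (y axis) on each array (points) by group (x axis), with the group mean as a line (n = 2). TP63, GRHL3 and BNC1 are already far above ES in IVDS2, while DSG3, DSC3 and DSP stay close to their own ES values there and are high in IVDS3.

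The desmosomal cadherin DSG3 showed the largest change of the 8 genes between IVDS3 and ES. It was at -0.29 and -0.20 in ES, at 0.15 and -0.17 in IVDS2, and at 5.93 and 5.66 in IVDS3. The difference between IVDS2 and ES was 0.24 ± 0.40 log2 units (limma adjusted p = 0.763), and that between IVDS3 and IVDS2 was 5.80 ± 0.40, or 55.9-fold (limma adjusted p = 1.24e-05). In the central foci the 2 arrays stood far apart, at 1.37 and 2.93, both above the peripheral area at -0.26 and -0.15. The foci were 5.1-fold higher than the periphery (2.35 ± 0.40, limma adjusted p = 0.00816), a call lost without the first IVDS2-P array (adjusted p = 0.0627) and when only those 4 arrays were fitted (adjusted p = 0.0666).

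DSC3, the partner cadherin, lay at -0.11 and -0.59 in ES, at -0.15 and 0.06 in IVDS2, and at 2.81 and 2.89 in IVDS3. ES and IVDS2 overlapped, and the IVDS3 arrays stood alone. The change was 0.31 ± 0.18 log2 units in IVDS2 against ES (limma adjusted p = 0.307), and DSC3 rose 7.43-fold in IVDS3 against IVDS2 (2.89 ± 0.18, limma adjusted p = 6.96e-06). It was the 1 gene of the 8 that was not called in the central foci, at -0.02 and 0.28, against ES (0.48 ± 0.18, limma adjusted p = 0.0685). Without the first ES array that difference was called (0.72, adjusted p = 0.0153), as it was with the most variable probe set (0.88, adjusted p = 0.0249). The foci did not pass the test against the periphery, at -0.23 and -0.09, either (0.29 ± 0.18, limma adjusted p = 0.34).

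DSP, the plaque protein that binds keratin filaments, was at -0.50 and -0.34 in ES, at 0.05 and -0.05 in IVDS2, and at 2.07 and 1.93 in IVDS3. The IVDS2 arrays were both above ES, but by 0.42 ± 0.14 log2 units, which did not pass the test (limma adjusted p = 0.0838). DSP rose 4-fold in IVDS3 against IVDS2 (2.00 ± 0.14, limma adjusted p = 1.31e-05). In the central foci, at 0.12 and 0.48, it was 2.08-fold above the peripheral area, where both arrays were at about -0.76 (limma adjusted p = 0.00266).

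PERP was the 1 structural gene that rose in IVDS2. It stood at -1.13 and -1.88 in ES, at 0.09 and -0.09 in IVDS2, and at 2.14 and 2.05 in IVDS3. It rose by 1.50 ± 0.25 log2 units in IVDS2 against ES (2.84-fold, limma adjusted p = 0.00483) and by 2.10 ± 0.25 in IVDS3 against IVDS2 (limma adjusted p = 0.000214). The central foci were at 0.58 and 1.14 and the peripheral area at -1.52 and -1.48, within the range of the ES arrays. The foci were 5.13-fold above the periphery (limma adjusted p = 0.00113).

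SFN was at -0.86 and -0.99 in ES, at 0.11 and -0.11 in IVDS2, and at 3.80 and 3.43 in IVDS3. Its IVDS2 arrays were both above ES, by 0.92 ± 0.31 log2 units (limma adjusted p = 0.0871). This difference was called when only those 4 arrays were fitted (adjusted p = 0.0183) or when either IVDS2-C array was left out (adjusted p = 0.00679). SFN rose 12.3-fold in IVDS3 against IVDS2 (3.62 ± 0.31, limma adjusted p = 3.74e-05). The central foci were at 1.02 and 2.17, the peripheral area at -1.21 and -1.06, and the foci were 6.65-fold higher (limma adjusted p = 0.00148).

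Whether a gene changed more in the first step (IVDS2 minus ES) than in the second (IVDS3 minus IVDS2) was tested as the difference between the 2 steps, a contrast in which the IVDS2 arrays count in both. The 3 regulators had the larger first step and DSG3, DSC3, DSP and SFN the larger second step. Of all genes, 9.1% were called with a larger first step and 9.76% with a larger second step. The difference was 3.72 ± 0.29 log2 units for GRHL3 (limma adjusted p = 0.000121), 1.75 ± 0.23 for TP63 (limma adjusted p = 0.00131) and 1.77 ± 0.52 for BNC1 (limma adjusted p = 0.0445). It was -5.57 ± 0.69 for DSG3 (limma adjusted p = 0.000873), -2.59 ± 0.30 for DSC3 (limma adjusted p = 0.000723) and -1.58 ± 0.24 for DSP (limma adjusted p = 0.00239). SFN gave -2.69 ± 0.53 (limma adjusted p = 0.00861), and PERP, at -0.59 ± 0.43, was not called (limma adjusted p = 0.388).

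The weakest of these calls was that of BNC1. Without the first IVDS2 array its difference was 0.66 (limma adjusted p = 0.272), and most other settings also took it over the threshold. SFN lost its call without the second IVDS2 array (-2.48, limma adjusted p = 0.0822).

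**Figure D2:**
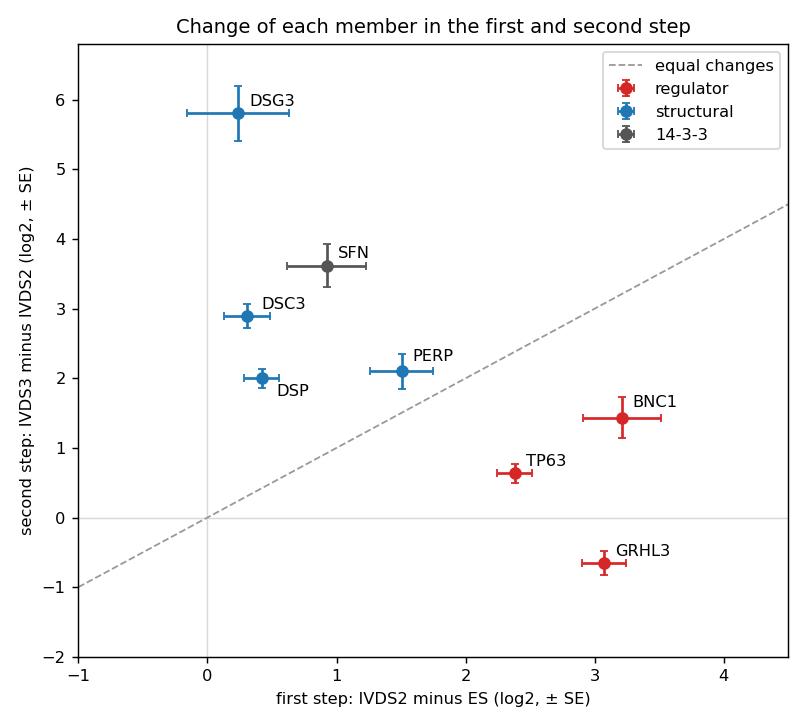
Log2 change of each gene from ES to IVDS2 (x axis) and from IVDS2 to IVDS3 (y axis), with SE bars; the dashed line marks equal changes. GRHL3, TP63 and BNC1 lie below the line, and DSG3, SFN, DSC3 and DSP lie above it, with PERP nearest to it.

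The part of each gene's change from ES to IVDS3 that was already present in IVDS2 ranked the genes by role, and the range over the 8 ways to take 1 array from each group is given with it. On the log2 scale TP63 had reached 79% (71.3 to 87.1), BNC1 69.1% (55 to 83.7) and GRHL3 127% (120 to 135), since it was higher in IVDS2 than in IVDS3. PERP had reached 41.8% (31.9 to 50), SFN 20.3% (16.1 to 24.8) and DSP 17.3% (12.1 to 22.5). DSC3 stood at 9.62% (-1.33 to 19.2) and DSG3 at 3.92% (0.503 to 7.44). In IVDS2, on this scale, no range of a regulator overlapped the range of a structural gene or of SFN.

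On the linear scale, where the same log2 step counts for more at a higher level, the shares were smaller for every gene but GRHL3, and the order of the genes changed only in that DSP passed SFN. TP63 had 59.4%, BNC1 34.3% and GRHL3 170% of its final difference, while PERP had 16.5%, DSP 7.76%, SFN 4.03%, DSC3 2.9% and DSG3 0.275%. The lowest array combination of BNC1 (19.9%) overlapped the highest of PERP (20.4%). The median share of the 3 regulators was 59.4% linear and 79% in log2 units, and that of the 4 structural genes was 5.33% linear and 13.5% in log2 units.

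**Figure D3:**
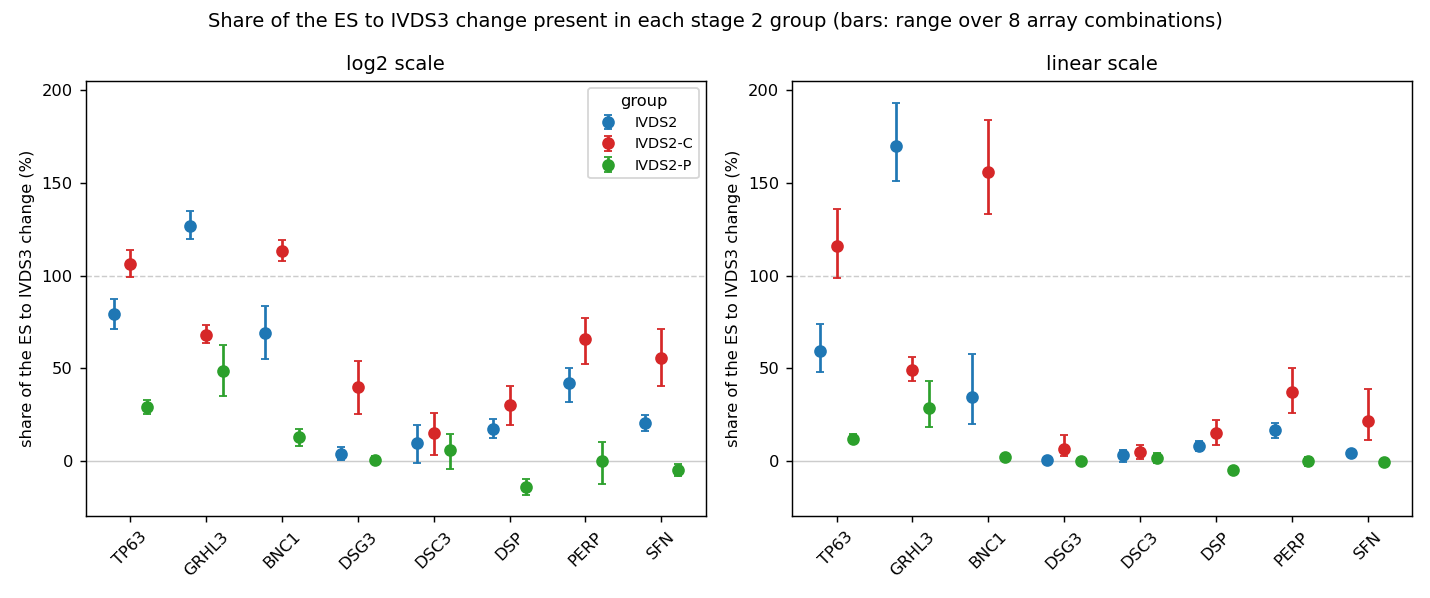
Share of the change from ES to IVDS3 (y axis, %) that each gene had reached in IVDS2, IVDS2-C and IVDS2-P, on the log2 scale (left) and the linear scale (right); bars give the range over 8 array combinations. TP63 and BNC1 exceed 100% in the central foci, while DSC3 and DSP have shares under 30% there on both scales.

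Within the colony at the second stage, 6 of the 8 genes were higher in the central foci than in the peripheral area, where 5.64% of all genes were. The exceptions were GRHL3 (0.48 ± 0.17 log2 units, limma adjusted p = 0.113) and DSC3. BNC1 differed most, at 25.7-fold (4.68 ± 0.30, limma adjusted p = 0.000183), and TP63 was 5.03-fold higher in the foci (2.33 ± 0.14, limma adjusted p = 0.000119). Without the second IVDS2-P array GRHL3 was called too (0.75, limma adjusted p = 0.0305). The median difference of the 8 genes was 2.34, beside -0.0343 over all genes.

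Against ES, 7 of the 8 genes had risen in the central foci, where 13.7% of all genes rose, and 2 of 8 in the peripheral area, where 6.31% did. The 2 genes that rose in the periphery were the regulators TP63 (0.87 log2 units) and GRHL3 (1.17, limma adjusted p = 0.00385). Of the 6 TP63 probe sets, only MmugDNA.33360.1.S1_at (1.40) and MmugDNA.33493.1.S1_at (2.46) were called there. MmugDNA.14568.1.S1_at pointed the other way (-0.42, limma adjusted p = 0.231). Without the second IVDS2-P array TP63 was not called there (adjusted p = 0.0554), which left 1 gene. No structural gene was called in the periphery, and their differences from ES were 0.04 for DSG3, 0.19 for DSC3, -0.34 for DSP and 0.00 for PERP, with -0.21 for SFN. Pluripotency markers moved with position as well. The mean centred level of the 8 measured was -0.24 and -1.15 in the foci, against 0.74 and 0.58 in the periphery and 1.37 and 1.59 in ES. NANOG, 1 of these 8, was called above ES in both areas (1.30 in the foci and 0.83 in the periphery). The part of these markers in the differences between the areas was not tested.

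Set against IVDS2, the foci were higher in 4 genes, TP63, BNC1, DSG3 and SFN, where 4.03% of all genes were higher. The periphery was lower than IVDS2 in 5 genes, TP63, GRHL3, BNC1, DSP and PERP, where 0.948% of all genes were lower. All 4 calls in the foci were lost when only those 4 arrays were fitted (limma adjusted p between 0.0897 and 0.128). Those of TP63, DSG3 and SFN were lost without the second IVDS2 array (adjusted p between 0.117 and 0.163), those of TP63, BNC1 and SFN without the second IVDS2-C array (adjusted p between 0.0568 and 0.111), and that of SFN without the first IVDS2 array (adjusted p = 0.0578). PERP was called higher in the foci without either ES array (adjusted p = 0.0366) or without the first IVDS2-C array (adjusted p = 0.0353). All 5 calls in the periphery were lost without the first IVDS2-P array (adjusted p between 0.0501 and 0.225), and those of DSP and PERP also without any other single array of IVDS2, IVDS2-P or IVDS3 (adjusted p between 0.0582 and 0.157). SFN was called lower in the periphery with only those 4 arrays (adjusted p = 0.0395) or without either IVDS2-C array (adjusted p = 0.0166). Later still, IVDS3 was higher than the foci in 6 of the 8 genes, where 10.9% of all genes were higher. The 2 that were not called were TP63 (-0.19) and BNC1 (-0.63, limma adjusted p = 0.187), and their means were lower in IVDS3. BNC1 was called lower in IVDS3 than in the foci when only those 4 arrays were fitted (adjusted p = 0.0297) or when either IVDS2 array was left out (adjusted p = 0.0236). Without the first IVDS2-C array or 1 IVDS3 array, GRHL3 (adjusted p between 0.0733 and 0.0817) and PERP (adjusted p between 0.0545 and 0.0558) were not called.

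When the 2 steps were taken through the central foci in place of IVDS2, the split between regulators and structural genes was less complete. TP63 (3.39 ± 0.23 log2 units) and BNC1 (5.90 ± 0.52) had the larger first step, where 6.1% of all genes did, and DSC3 (-2.24 ± 0.30) and DSP (-0.97 ± 0.24) the larger second step, where 5.97% of all genes did. GRHL3 (0.88, limma adjusted p = 0.0893), DSG3 (-1.26, limma adjusted p = 0.295), PERP (1.13, limma adjusted p = 0.13) and SFN (0.50, limma adjusted p = 0.616) were not called. DSG3, SFN and PERP had covered 39.6%, 55.5% and 65.7% of their log2 change in the foci. GRHL3 had covered 68.2% there, and its range (63.5 to 73.1) overlapped those of PERP (52.1 to 76.9) and SFN (40.4 to 71.4). In the peripheral area the range of BNC1 (8.05 to 17.4) overlapped those of DSC3 (-4.34 to 14.6) and PERP (-12.3 to 10.2).

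The order of the 5 groups differed between genes. TP63 and BNC1 ran from the foci down through IVDS3, IVDS2 and the periphery to ES, and in both the difference between the foci and IVDS3 was not called with all arrays, although the BNC1 arrays of these groups did not overlap. The periphery and ES were separated in TP63 and not in BNC1. GRHL3 ran from IVDS2 through IVDS3, the foci and the periphery to ES, and there the foci and the periphery did not separate. For DSG3, DSC3, DSP, PERP and SFN the highest group was IVDS3, followed by the foci and IVDS2, with the periphery and ES at the bottom and, as in BNC1, not separated from each other. In DSC3 no pair of neighbours below IVDS3 passed the test, and in DSP none did either. Of the 32 neighbouring pairs over the 8 genes, 16 were called. The pairs were ordered by the same values, and no share over all genes was counted for them, so this count describes the order alone.

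At the level of single probe sets, 9 of 15 were higher in IVDS2 than in ES, where 4.92% of all probe sets were, 15 of 15 were higher in IVDS3 than in ES, where 17.9% were, and 12 of 15 were higher in the foci than in the periphery, where 3.85% were. The 6 probe sets of TP63 agreed in direction in these 3 comparisons but not in size. MmugDNA.33493.1.S1_at rose 38.9-fold in IVDS3 against ES (5.28 log2 units), and MmugDNA.14568.1.S1_at rose 1.96-fold (0.97). In IVDS2 against ES the same 2 differed by 4.18, which was called, and by 0.66, which was not (limma adjusted p = 0.0795) unless either IVDS2-P array was left out (adjusted p = 0.0414). TP63 is known to be made as long and short forms from separate promoters and with several ends, and no probe sequence was used here, so which form each probe set reads was not examined.

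**Figure D4:**
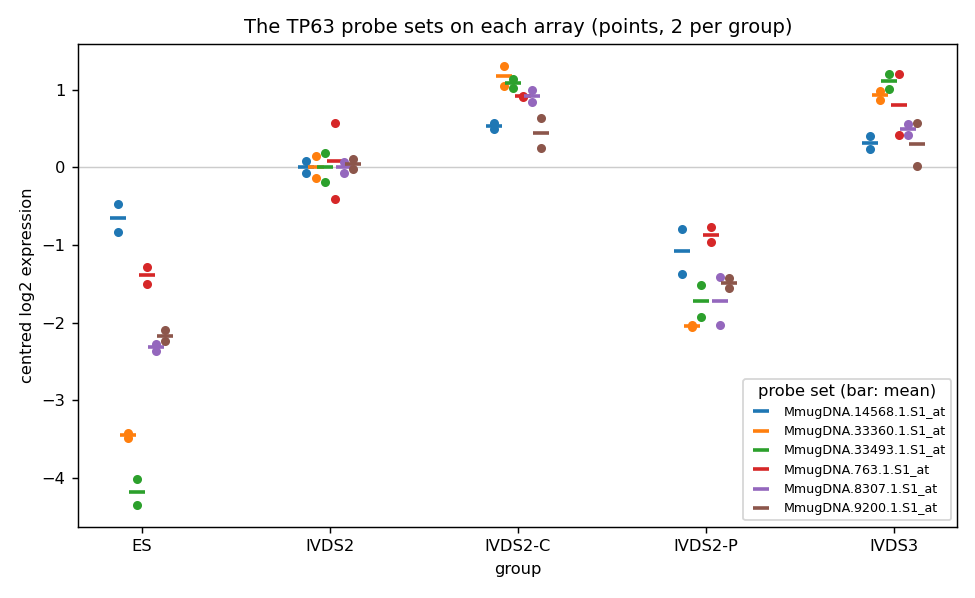
Centred log2 expression (y axis) of the 6 TP63 probe sets on each array (points) by group (x axis), with a bar at each group mean. All 6 are lower in ES than in IVDS2-C and IVDS3, and the probe sets spread most in ES, with group means between -4.18 and -0.66.

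The 2 probe sets of DSC3 also differed in size. MmugDNA.19535.1.S1_at was 35.5-fold higher in IVDS3 than in ES (5.15 log2 units) and MmuSTS.4071.1.S1_at was 2.39-fold higher (1.26). Both had the larger second step, at -4.25 and -0.93, and the second of these calls (limma adjusted p = 0.0345) was lost with only the compared arrays or without any 1 array of IVDS2, IVDS2-P or IVDS3 (adjusted p between 0.0563 and 0.171). The 2 probe sets of PERP agreed closely, with 3.52 and 3.68 log2 units in IVDS3 against ES and 1.50 and 1.51 in IVDS2 against ES.

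Other desmosome genes were measured beside the members. Of 13 listed genes 10 were measured, and 1 of them, DSC2 (1.17 ± 0.13 log2 units, limma adjusted p = 0.000845), had risen in IVDS2 against ES. In IVDS3 against ES 7 had risen and 1, PKP4, had fallen (28.6% of all genes fell), with a list median of 1.76. The largest rises were in DSG1 (3.23 ± 0.25), DSC1 (2.50 ± 0.17), the cornified envelope protein EVPL (2.34 ± 0.14) and JUP (1.92 ± 0.16), the plakoglobin of the plaque. The larger second step was called for 6 of the 10 and the larger first step for 0, where 9.76% and 9.1% of all genes had them. Those of JUP and PKP3 were lost without either IVDS2 array and in some other fits. For PKP3 these included the fit of only the compared arrays (limma adjusted p = 0.0573). Beside the counts of this list and of the lists and markers below, 6.5% of all genes rose in IVDS2 and 21.1% in IVDS3. Another 4 cadherins of this family stand beside DSG3 and DSC3 in the macaque genome: in the RefSeq annotation of assembly T2T-MMU8v2.0 the genes DSG3, DSG4, DSG1, DSC1, DSC2 and DSC3 form 1 run of 6 protein-coding genes. Of the 5 measured, DSG3, DSG1, DSC1 and DSC3 were not called in IVDS2 against ES and rose in IVDS3, and DSC2 rose in both steps. DSG4 was not measured. Which of the listed genes were called in IVDS2 against ES changed when single arrays were left out. With the replicate number as a block, 1 had risen and 1 had fallen.

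Among other epithelial transcription factors the first step was not general. Of 16 listed, 12 were measured. In IVDS2 against ES 4 had risen and 2 had fallen (6.23% of all genes fell), and 8 had risen and 1 had fallen in IVDS3 against ES. In IVDS2 only 1 had fallen with the replicate number as a block, with only the ES and IVDS2 arrays fitted or with the most variable probe set. TFAP2A and TFAP2C, AP-2 factors of surface ectoderm, trophoblast and amnion, had the larger first step (3.18 ± 0.39, limma adjusted p = 0.000888, and 2.42 ± 0.33, limma adjusted p = 0.00151). ZNF750, which drives late keratinocyte differentiation, had the larger second step (-6.08 ± 0.74, limma adjusted p = 0.00081), as did KLF4, EHF and BNC2. ZNF750 was 7.29 log2 units above ES in IVDS3, KLF5 6.06 and GRHL1 4.03, and KLF5 (2.89 ± 0.39) had also risen in IVDS2. Neither KLF5 nor GRHL1, a relative of GRHL3, had a called difference between the steps.

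**Figure D5:**
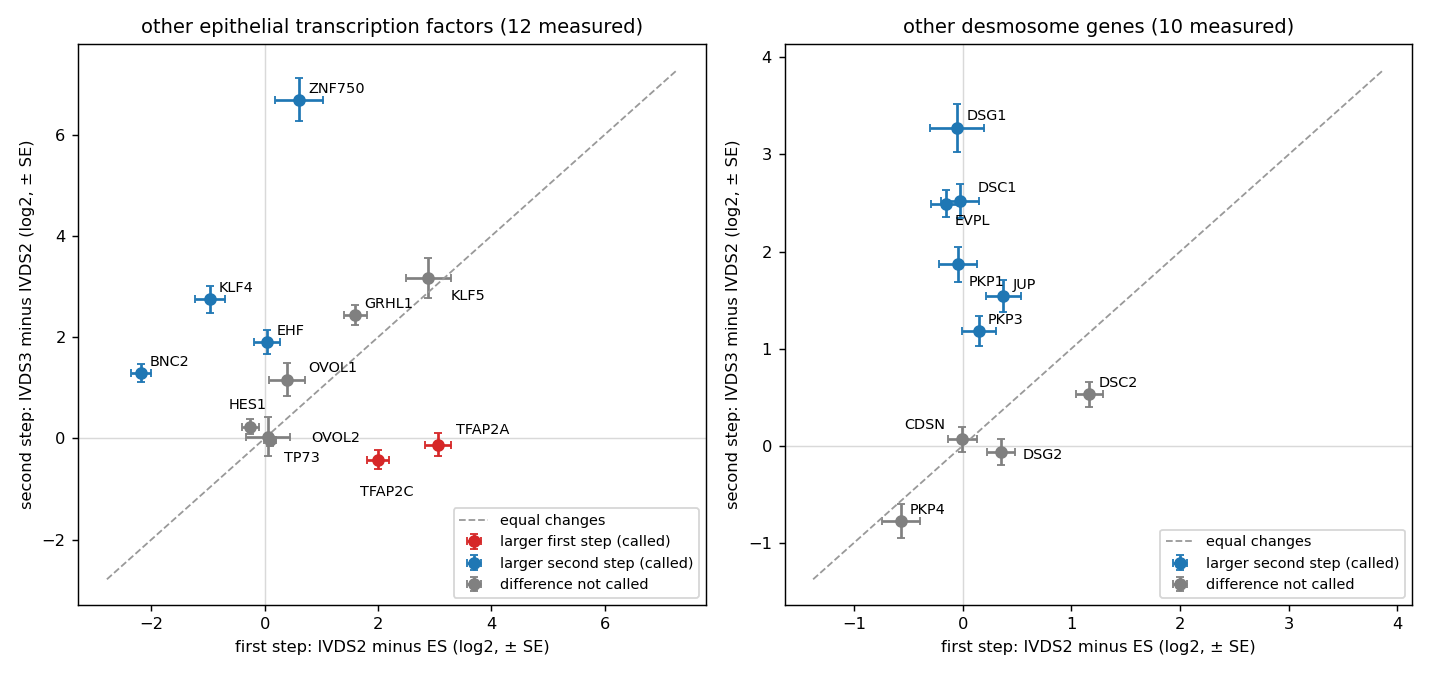
Log2 change from ES to IVDS2 (x axis) and from IVDS2 to IVDS3 (y axis), with SE bars, for 12 other epithelial transcription factors (left) and 10 other desmosome genes (right). On the right 6 genes have a called larger second step, and on the left TFAP2A and TFAP2C have a called larger first step.

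Among genes linked to p63, more had risen by IVDS3 than by IVDS2, as was so among all genes. Of 16 listed, 11 were measured, and 2 had risen and 1 had fallen in IVDS2, against 9 that had risen and 1 that had fallen in IVDS3 (list median 2.11). Of all genes, 6.5% rose and 6.23% fell in IVDS2, and 21.1% rose and 28.6% fell in IVDS3. The gap junction gene GJB6 rose by 6.63 ± 0.21 log2 units in IVDS3 against ES, SAMD9L by 5.35 ± 0.47, the water channel AQP3 by 4.97 ± 0.38 and the receptor EGFR by 4.49 ± 0.43. GJB6 (1.78 ± 0.21) and the P-cadherin gene CDH3 (0.90 ± 0.22) had risen in IVDS2, CDH3 only as long as all ES and IVDS2 arrays were kept (adjusted p between 0.0742 and 0.161 without 1 of them). Of the list, 1 gene was called in IVDS2 without the second ES or the second IVDS2 array, and 6 without either IVDS2-C array. The larger second step was called for 5 of the 11, where 9.76% of all genes had it. With the replicate number as a block it was called for 7, and the larger first step for 1.

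Hemidesmosomes and the basement membrane anchor basal cells from below. Of 11 listed genes 7 were measured, 6 had risen in IVDS3 against ES by less than 1 log2 unit each, and none had risen in IVDS2. CD151 rose by 0.97 ± 0.16, ITGB4 by 0.77 ± 0.13, ITGA6 by 0.73 ± 0.15 and LAMA3 by 0.67 ± 0.14. ITGA6 was lower than ES in IVDS2 (-0.68 ± 0.15, limma adjusted p = 0.0184), which was not called without the second ES or the second IVDS2 array or with only those 4 arrays fitted (adjusted p between 0.0518 and 0.129).

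Cornified layer genes, which belong to cells above the basal layer, moved both ways in IVDS3. Of 19 listed, 14 were measured, and 8 had risen and 4 had fallen in IVDS3 against ES, while 0 had risen and 2 had fallen in IVDS2. Of all genes, 6.5% rose and 6.23% fell in IVDS2, and 21.1% rose and 28.6% fell in IVDS3. In IVDS3 CSTA rose by 6.62 ± 0.38 log2 units, the suprabasal keratin KRT1 by 5.73 ± 0.21, SPRR1B by 4.09 ± 0.18 and KRT16 by 3.53 ± 0.17. KLK7 (-2.01), KLK5 (-0.85), CALML3 (-0.61) and CNFN (-0.59) fell in IVDS3. The proteases KLK7 (-0.998 ± 0.21) and KLK5 (-0.52 ± 0.13) were lower in IVDS2 than in ES, and 0 of the list were called in IVDS2 without the second ES array or without either IVDS2 array. A larger second step was called for 7 of the 14, and a larger first step for 0.

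Genes of simple epithelia and adherens junctions had in part risen by IVDS2. Of 15 listed, 12 were measured; 7 had risen in IVDS2 against ES and 11 had risen and 1 had fallen in IVDS3. The simple epithelial keratins KRT19 (2.19 ± 0.20) and KRT8 (2.14 ± 0.23) led in IVDS2, and RAB25 (4.35 ± 0.28), KRT7 (3.02 ± 0.34), KRT19 (2.96 ± 0.20) and the splicing factor ESRP2 (2.06 ± 0.23) in IVDS3. The first step was the larger in 3 and the second in 2 of the 12, counts that single IVDS2 or IVDS3 arrays brought to 1 or 3 in all. In the foci 10 of the 12 were higher than in the periphery.

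No measured relative of SFN was called higher in IVDS3, and targets of p53 moved both ways. Of 6 other 14-3-3 genes 3 were measured, 0 had risen and 2, YWHAH (-0.74 ± 0.10) and YWHAQ (-0.36 ± 0.10), had fallen in IVDS3 against ES. YWHAQ was not called with only those 4 arrays fitted or without either IVDS3 array (adjusted p between 0.0566 and 0.0839). Of 16 p53 targets 15 were measured, and 6 had risen and 4 had fallen in IVDS3, while 2 had risen and 1 had fallen in IVDS2. Beside these counts, 6.5% of all genes rose and 6.23% fell in IVDS2, and 21.1% rose and 28.6% fell in IVDS3. The cell cycle inhibitor CDKN1A rose by 4.03 ± 0.21 and GADD45A by 1.16 ± 0.12, while the death genes BAX (-1.19 ± 0.13) and FAS (-1.03 ± 0.21) fell. In IVDS2 GADD45A (1.08 ± 0.12) had risen and FAS (-1.03 ± 0.21) had fallen, and 1 gene of the list was called without the second ES or the second IVDS2 array.

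Markers of other cell types moved along the same stages. Of 9 measured trophoblast and amnion markers, 9 had risen in IVDS2 and 8 in IVDS3 against ES, led by GABRP (4.10 ± 0.23 in IVDS2, 8.19 ± 0.23 in IVDS3) and VGLL1 (4.01 ± 0.29 in IVDS2, 6.17 ± 0.29 in IVDS3), with ELF5 at 5.53 and WNT6 at 4.96 in IVDS3. Their mean centred level was -2.44 and -2.19 in ES, 0.24 and 0.17 in IVDS2 and 1.71 and 1.79 in IVDS3, with 1.05 and 1.39 in the foci, against -1.82 and -1.45 in the periphery. The larger first step was called for 5 of the 9 and the larger second step for 1, and leaving out single IVDS2 or IVDS3 arrays brought this total to between 1 and 3. GATA3 and TP63 are used as markers of trophoblast and amnion too, and TP63 alone does not tell these lineages and basal epithelium apart.

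Of 8 measured fibroblast genes, which the feeder and co-culture cells would carry, 6 had risen and 2 had fallen in IVDS3 against ES, and 1 had risen and 1 had fallen in IVDS2. LUM rose by 5.48 ± 0.21, DCN by 4.57 ± 0.16 and COL1A2 by 2.91 ± 0.16 log2 units in IVDS3, while THY1 fell by 1.31 and COL1A1 by 0.74. In IVDS2 COL1A2 had risen by 1.34 ± 0.16 and THY1 had fallen by 1.33. The mean centred level of the 8 was -0.04 and -0.14 in ES, -0.18 and 0.02 in IVDS2 and 1.63 and 1.52 in IVDS3, with 0.39 and 0.37 in the foci, against -0.13 and -0.29 in the periphery. In IVDS3 against IVDS2, the step in which DSG3, DSC3 and DSP rose, 5 of the 8 fibroblast genes rose as well, and their part in those rises was not tested. Centred values have no zero level, so which markers were absent cannot be told.

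Of 8 measured pluripotency genes 6 had fallen and 1 had risen in IVDS3 against ES, with POU5F1 (-7.60 ± 0.79), DPPA4 (-5.93 ± 0.53), DNMT3B (-5.25 ± 0.37) and SALL4 (-4.73 ± 0.36) lowest. NANOG was the 1 that rose, by 1.48 in IVDS3 and by 1.04 in IVDS2. In IVDS2 5 had fallen and 1 had risen, with POU5F1 at -3.34 ± 0.79 and DPPA4 at -3.12 ± 0.53. POU5F1 was not called without the first ES array (-3.51), the second ES array (-3.18) or the second IVDS2 array (-2.64). Without the second IVDS2 array DPPA4 (-2.72) was not called either, and fewer genes of the list were called. Of 7 hepatic markers 0 had risen and 4 had fallen in IVDS3 (APOA1 -1.84, AFP -0.64, RBP4 -0.50 and APOB -0.48), or 2 without the first ES or the first IVDS3 array, and RBP4 was lower in IVDS2 (-0.38, limma adjusted p = 0.0475). That call was lost in most alternatives, with adjusted p between 0.0508 and 0.218. Neural markers (4 measured) had 3 that rose in IVDS3, PAX6 (3.33), DCX (1.96) and TUBB3 (0.87), and 2 in IVDS2, LMX1A (3.12) and PAX6 (2.92). Endothelial and blood markers (6 measured) had 3 that fell in IVDS3, TEK (-2.49), KDR (-1.32) and CDH5 (-0.41), and TEK fell in IVDS2 (-1.001). KDR and CDH5 were not called without the second IVDS3 array. The IVDS2 call of TEK was lost without any 1 ES or IVDS2 array, with differences between -0.896 and -1.106. It was also lost with the most variable probe set (limma adjusted p = 0.0507).

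The genes whose values over the 10 arrays were most like each member, among the 1086 genes whose group means spanned at least 2 log2 units, are given as a description of shape alone. The correlations are over arrays that form 5 groups and share the normalization. NOL4 (r = 0.993), GATA3 (0.991) and ARHGAP29 (0.989) were most like TP63, and SOSTDC1 (0.991), NOL4 (0.99) and CAVIN2 (0.989) most like BNC1. GRHL3 was matched less closely, by TFAP2C (0.964), the unnamed locus LOC715831 (0.932) and KRT8 (0.928), whose 2 IVDS2 arrays were likewise its highest, at 0.50 and 0.97.

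DSG3 was most like ACSL1 (0.998), UPK1B (0.997) and BLNK (0.997), which shared with it the wide gap between the central foci arrays. DSC3 was most like DCN (0.993), the fibroblast proteoglycan named above, GPNMB (0.991) and the keratin gene KRT24 (0.991). DSP paired with LOC713392 (0.993), AP1S3 (0.993) and its plaque partner JUP (0.992). PERP was nearest to ENDOD1 (0.99), WNT6 (0.987) and CRYBG1 (0.984), and SFN to TRIM29 (0.994), ANKRD22 (0.993) and MYOF (0.992). The 17.6% of all genes that rose and the 22.2% that fell in IVDS3 against IVDS2 are the background to the 7 members that rose and the 1, GRHL3, that fell in that step.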

How the data were processed

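Total RNA of 10 ORMES6 samples was hybridised to Affymetrix rhesus macaque arrays. The deposited table holds log2 values from RMA, of a version not given, per the submitters' processing notes; the log base was inferred from the values (largest range over the arrays 9.51), and the centring of each probe set on its median was found in the values (0 medians beyond 1e-05). The RMA fit, which scales all arrays together, can shrink differences at low signal.

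Of 44294 probe sets, 84 controls were left out. Of the 44210 tested, 22802 were annotated to 1 gene, 316 to several and 21092 to none. The mean of a gene's probe sets gave 13191 genes. Groups came from the sample titles. All 10 arrays were fitted in limma 3.58.1 (R 4.3.3) with 1 term per group and moderated variances (residual degrees of freedom 5, prior 3.94 for genes and 4.33 for probe sets), with Benjamini-Hochberg adjustment over all genes or all probe sets and a threshold of 0.05. The fit was tested on simulated data. With 2 arrays per group, the number of arrays limits the precision. No filter on dim probe sets could be made on centred values.

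The 8 genes, the gene lists and the markers were chosen with earlier results of these data known, so no list is independent evidence. The text names the 8 genes with all their probe sets and the 3 genes most like each member by Pearson's r. From each list it names up to 4 genes called in IVDS3 against ES with the largest change, and up to 2 called in IVDS2 against ES. Other genes were chosen after their values were seen. These were the fallen PKP4, COL1A1, CALML3 and CNFN, the risen NANOG, and the genes higher in IVDS2 than in both areas. TFAP2C, KLF4, EHF, BNC2 and PKP3 were so chosen for the difference between the steps.

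Alternatives were a fit without each array in turn, a block for the replicate number, a fit of the compared groups alone, arrays shifted to a median of 0, the most variable probe set of a gene, a 2-fold limit for probe sets, the linear scale for shares and, added after seeing the data, the steps and shares through IVDS2-C and IVDS2-P and the comparisons of both areas with IVDS2 and of IVDS3 with IVDS2-C. Replicate numbers were checked for pairing: over the 10 pairs of groups, replicate differences correlated between -0.119 and 0.254, 5 of them above 0.1, so the numbers were not treated as pairs. Sequences and coordinates of the probes were not used here.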

Additional observations from a re-analysis of the deposited data

Results flagged for a closer look

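The change from ES differed between the central foci and the peripheral area in 6 of the 8 genes, tested as IVDS2-C minus IVDS2-P in limma. Of all genes, 5.64% were called higher in the foci. The difference was 2.33 log2 units for TP63, 4.68 for BNC1, 2.35 for DSG3, 1.06 for DSP, 2.36 for PERP and 2.73 for SFN. In each, both foci arrays were above both peripheral arrays, and the share of all genes with this separation was not counted. The difference of DSG3 was not called without the first IVDS2-P array or with only those 4 arrays fitted (adjusted p = 0.0627 and 0.0666).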

How the results depend on the processing

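Of the counts of the 8 genes called, for the comparisons against ES, foci against periphery, IVDS3 against IVDS2 and the steps, 2 moved by over 1.5 times: IVDS2-P against ES, which ranged from 1 to 2 over the fits without 1 array, and the steps, which were 7 with all arrays and 4 through the central foci. The comparisons of both areas with IVDS2 lost calls as described above. The counts without 1 array ranged from 4 to 5 in IVDS2 against ES, 8 to 8 in IVDS3 against ES, 7 to 8 in IVDS2-C against ES, 5 to 7 in IVDS2-C against IVDS2-P, 7 to 8 in IVDS3 against IVDS2 and 6 to 6 for the difference between the steps. With the replicate number as a block the counts were 4, 8, 7 and 2 against ES for IVDS2, IVDS3, IVDS2-C and IVDS2-P. They were 6 for foci against periphery and 8 for IVDS3 against IVDS2. For the steps the count was 6, and BNC1 was not called (limma adjusted p = 0.0575). Of the named list genes called in IVDS2 against ES, RBP4 lost its call under the block (limma adjusted p = 0.0562). Among the listed epithelial transcription factors, 1 had then fallen in IVDS2 in place of 2. The median share reached in IVDS2 was 79% for the regulators (74.8 to 83.1 without 1 array) and 13.5% for the structural genes (12.3 to 15.3). It was 59.4% and 5.33% on the linear scale, 106% and 34.7% in the central foci, and 28.9% and 0.394% in the peripheral area. Signs turned for 7 differences, none of them called: in IVDS2-P against ES without 1 array, DSG3 ranged from -0.015 to 0.096, DSC3 from -0.057 to 0.43 and PERP from -0.37 to 0.38, and TP63 in IVDS3 against IVDS2-C was 0.027 with its most variable probe set. Without 1 array, the DSC3 probe set MmuSTS.4071.1.S1_at ranged from -0.00053 to 0.33 in IVDS2 against ES and from -0.052 to 0.098 in IVDS2-C against IVDS2-P, and the TP63 probe set MmugDNA.763.1.S1_at from -0.23 to 1.72 for the difference between the steps. The cause of these changes was not tested. Signal over background could not be assessed from centred values.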
